A study of Mus musculus with 12 samples.

Results

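The insulin-like growth factor (IGF) genes of the mouse heart were followed through 4 groups of hearts. The set held 9 of the 33641 genes in the deposited table, picked by their symbols: the ligands Igf1 and Igf2, the receptors Igf1r and Igf2r, and the binding proteins Igfbp3, Igfbp4, Igfbp5, Igfbp6 and Igfbp7. Levels are in TPM, transcript abundances scaled to transcript length and to a fixed library total. All 9 reached 1 TPM in at least 3 of the 12 libraries and so were among the 13158 genes tested. The mice were wild-type C57BL/6 males, about 10 weeks old at the first injection and about 16 weeks old at sampling. Myocardial infarction (MI) or sham surgery came first. From 2 weeks after surgery, prednisone, a glucocorticoid prodrug, or vehicle was injected intraperitoneally once a week for 6 weeks at lights-on, with prednisone at 1 mg/kg in PBS, diluted from DMSO stock. RNA was taken from the myocardium 24 hours after the last dose. There were 3 mice in each group: sham with vehicle, sham with prednisone, MI with vehicle and MI with prednisone. The sources used here do not say which region of an infarcted heart was sampled.

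IGF-1 and IGF-2 are secreted peptides that signal through the tyrosine kinase receptor encoded by Igf1r, upstream of the PI3K-AKT and MAPK cascades, and in the heart they promote growth and survival of cardiomyocytes. Igf2r encodes the cation-independent mannose-6-phosphate receptor, which clears IGF-2 from the cell surface and sorts enzymes to lysosomes. The IGF binding proteins hold the ligands in the extracellular space and can prolong or block their action. Igfbp7 is a more distant relative with low affinity for the ligands and is deposited in matrix. On GRCm38 (GENCODE M21) the genes lie apart, except that Igf2 (chr7:142650766-142666816, minus) and Igf1r (chr7:67952827-68233668, plus) share a chromosome, as do Igfbp3 (chr11:7206086-7213923, minus) and Igfbp4 (chr11:99041244-99054392, plus). The others are Igf2r (chr17:12682406-12769664, minus), Igfbp5 (chr1:72857932-72874884, minus), Igfbp6 (chr15:102144362-102149511, plus), Igfbp7 (chr5:77349240-77408041, minus) and Igf1 on chromosome 10.

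Cardiomyocyte markers (Tnnt2, Tnni3, Myh6, Actc1, Myl2, Ryr2 and Ttn) summed to 29288 to 34997 TPM in sham hearts. They summed to 20940 to 25983 TPM in MI vehicle hearts, below all other libraries, and to 30956 to 34036 in MI prednisone hearts. The single markers differed. By mean in sham vehicle, MI vehicle and MI prednisone hearts, Tnnt2 (5776, 4861 and 6338 TPM), Tnni3 and Myl2 followed the sum. Ryr2 (67.9, 42.9 and 30.2) and Actc1 (5296, 5222 and 4474) were lowest in MI prednisone hearts. Myh6 (2938, 1941 and 2438) and Ttn (34.4, 21.4 and 26.5) lay between MI vehicle and sham vehicle. The 4 atrial markers summed to 845 to 2686 TPM in sham hearts, 2802 to 4106 in MI vehicle and 4335 to 6173 in MI prednisone hearts. Nppa made the MI vehicle sum higher (904 TPM in sham vehicle and 2706 in MI vehicle by mean), while the means of Sln (48.0 and 31.9), Myl7 (445 and 308) and Myl4 (341 and 244) were lower. Those lower means came from the second MI vehicle heart, with Sln at 7.14, Myl7 at 64.0 and Myl4 at 49.9 TPM. The other MI vehicle hearts lay within the sham vehicle range for these markers. In MI prednisone hearts Sln (87.5 to 118.4 TPM), Myl7 (793 to 1036) and Myl4 (617 to 768) lay above every other library, while Nppa overlapped the MI vehicle hearts. Between 11690 and 14307 genes reached 1 TPM in a library. The third MI vehicle library had the most, and its median gene stood 0.74 log2 units above the sham vehicle mean. Mitochondrially encoded transcripts took 21.6% to 42.0% of TPM. In the 3 MI prednisone libraries, deviations from the sham vehicle mean correlated with transcript length across genes at Spearman's rho of -0.38, -0.40 and -0.25, against -0.12 to 0.24 in the other 9. Because of these library differences the members' calls are set beside values after median-ratio rescaling of the libraries and after a correction for transcript length. RNA came from whole tissue, so fewer cells of a type and less RNA per cell cannot be told apart.

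After infarction under vehicle, Igf1 and 3 binding protein genes were higher than in sham hearts, and none of the 9 genes was lower. In infarcted hearts given prednisone, 5 of the genes were lower than under vehicle (Igfbp3, Igfbp4, Igfbp5, Igfbp7 and Igf2r) and Igf2 was higher. In sham hearts none passed the threshold with prednisone. Infarcted and sham hearts compared under prednisone differed in Igfbp3, which was higher, and Igf2r, which was lower. The effect of prednisone itself differed between infarcted and sham hearts for Igfbp4, Igf2r and Igfbp7.

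These calls are read against the background of all tested genes, in which a call is a limma adjusted p under 0.05. For MI against sham under vehicle, 4 of 9 genes were called where 16.0% of all genes were, nearly all of them higher (15.1%). After rescaling 7.44% of all genes were called and after the length correction 5.31%, and the 4 members were called on both scales. The median change of the 9 was 0.96 on the log2 scale against 0.39 for all genes. With prednisone against vehicle in MI, 6 of 9 were called against 37.4% of all genes, and 34.9% of genes were lower and 2.50% higher. After rescaling 2 of 9 were called against 28.8%, and after the length correction 2 of 9 against 16.4%. The median changes of the 9 and of all genes were -0.60 and -0.41. For MI against sham under prednisone, 2 of 9 were called against 16.8% (2.73% higher and 14.1% lower). After rescaling 26.0% of all genes were called there, and after the length correction 12.9%. On the rescaled values 3 of 9 were called (Igf1, Igf1r and Igfbp3), and with length corrected 2 of 9 (Igf1 and Igfbp3). The medians were -0.16 and -0.06. The 2 MI comparisons with vehicle share the MI vehicle hearts, so a high value there enters both. When only the sham and MI vehicle hearts were fitted, 0 of the 9 genes were called (Igf1, Igfbp3, Igfbp4 and Igfbp7 at limma adjusted p of 0.0684 to 0.0905). With all 4 groups fitted, 5 of 9 had an unadjusted limma p under 0.05, as had 5557 of the 13158 genes tested.

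**Figure D1:**
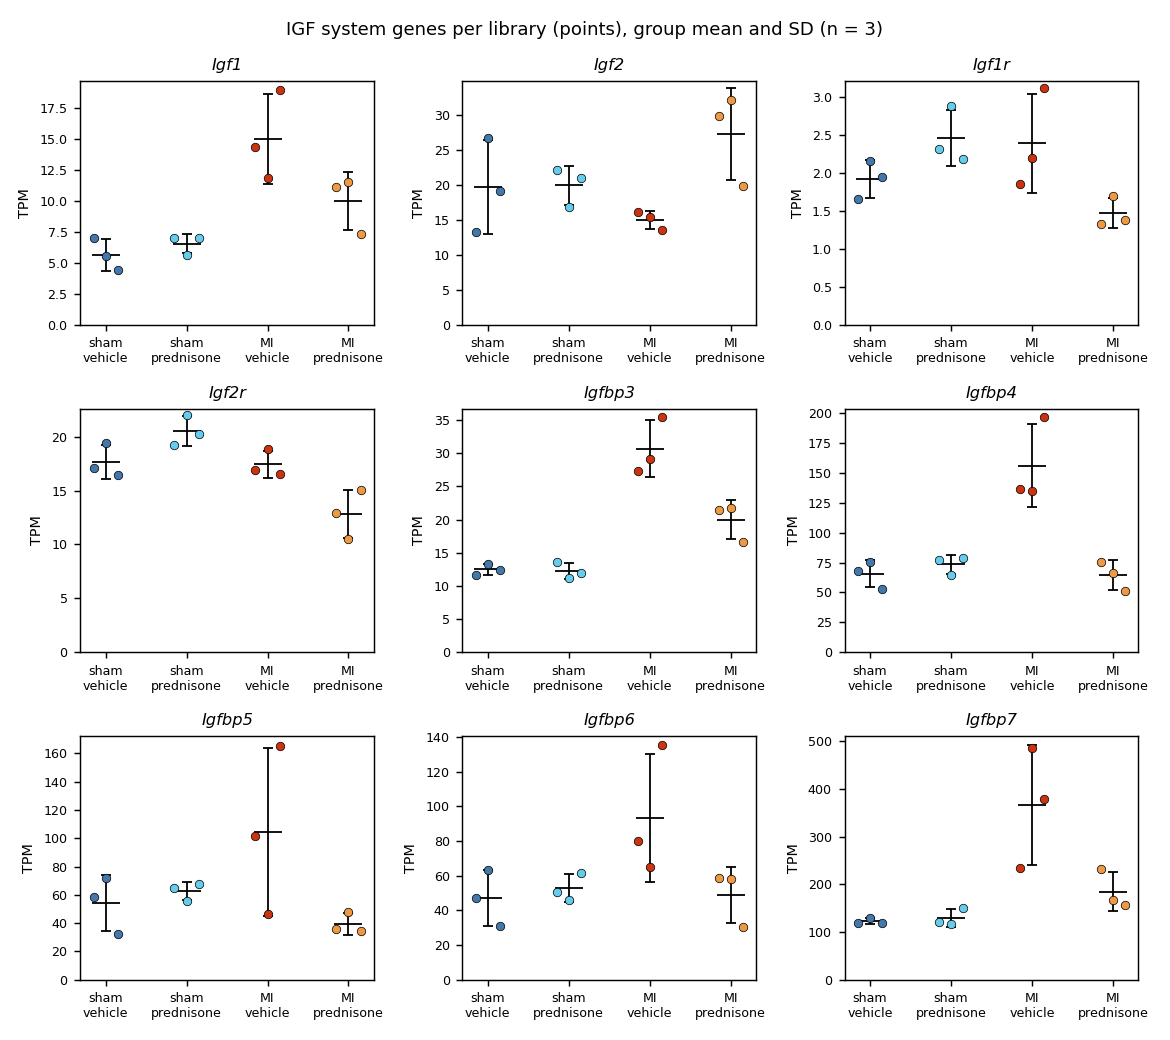
TPM (vertical axes, from 0) of each of the 9 genes in the 12 libraries. Points are mice, bars the group mean and SD (n = 3). MI vehicle hearts sit highest for Igf1, Igfbp3, Igfbp4 and Igfbp7, and Igf2 is highest in the MI prednisone hearts, at 19.8 to 32.1 TPM.

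Among the ligands, Igf1 was measured at 7.0, 5.50 and 4.44 TPM in sham vehicle hearts and at 14.3, 11.8 and 18.9 TPM in MI vehicle hearts. Every infarcted heart under vehicle lay above every sham vehicle heart, as for 40.8% of all genes. The change was 1.26 ± 0.21 (SE) on the scale of log2(TPM + 1), on which all changes are given (limma adjusted p = 0.00922, n = 3 per group). It was also called after rescaling (0.86) and after the length correction (0.83). Without the third sham vehicle mouse it was 1.13 with a limma adjusted p of 0.0548. With prednisone, Igf1 stood at 7.01, 5.63 and 6.97 TPM in sham hearts and at 11.1, 11.5 and 7.29 TPM in infarcted hearts. The lowest treated infarcted heart was just above the highest treated sham heart. Of all genes, 12.9% had groups separated in that direction. That difference, 0.52 ± 0.21, was not called (limma adjusted p = 0.125), but it was after rescaling (0.62, limma adjusted p = 0.0269) and after the length correction (0.64, limma adjusted p = 0.0398). Between prednisone and vehicle in MI the difference was -0.54 ± 0.21 (limma adjusted p = 0.0654), and -0.12 after rescaling.

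Igf1 has 2 alternative leader exons, which encode different signal peptide starts, and an optional 52-base exon that changes the carboxy-terminal E peptide of the precursor. In GENCODE M21 the gene spans chr10:87858265-87937042 on the plus strand of GRCm38. The 52-base exon lies at chr10:87915298-87915349 and is coding throughout. Including it gives the precursor called Eb in rodents, and skipping it gives Ea. The exon and the junctions that tell the forms apart are shown because reads over them separate Ea from Eb. They do not separate the leader classes described next, each of which holds transcripts with and without the exon. Lower case at the junctions is the end of the exon both forms share, and capitals are the first bases of the exon that follows it.
Igf1 52-base exon: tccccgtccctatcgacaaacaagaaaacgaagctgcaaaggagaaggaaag
Igf1-202 junction, exon skipped: cccaagactcagaagGAAGTACATTTGAAG
Igf1-203 junction, exon included: cccaagactcagaagTCCCCGTCCCTATCG

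Transcripts were classed by leader exon 2, which in Igf1-205 follows a noncoding first exon, and those without it were counted as leader exon 1. The leader exon 1 class summed to 3.04, 2.86 and 2.36 TPM in sham vehicle hearts, 6.11, 5.80 and 7.48 in MI vehicle hearts and 2.71, 2.60 and 2.35 in MI prednisone hearts. The treated infarcted hearts were within or just below the sham vehicle range. Transcripts with leader exon 2 summed to 3.96, 2.64 and 2.08 TPM, 8.17, 5.99 and 11.4 TPM, and 8.42, 8.87 and 4.94 TPM in the same groups. Here the treated and untreated infarcted hearts overlapped. The share of leader exon 2 in Igf1 was 56.2% ± 4.94 (SD, n = 3) in MI vehicle hearts and 73.6% ± 5.12 in MI prednisone hearts, without overlap. With 3 against 3 mice no exact permutation p can fall under 0.1, so the shares are given without a test.

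Tested one by one, the leader exon 1 transcripts Igf1-202 and Igf1-203 were lower with prednisone in MI, by limma changes of -0.73 ± 0.17 (adjusted p = 0.0084) and -1.21 ± 0.27 (adjusted p = 0.00767). Of the 27769 transcripts tested, 33.0% were called in this comparison. The leader exon 2 transcripts Igf1-205 (-0.50) and Igf1-206 (0.29) were not called. Igf1-202 is 7052 bases long, Igf1-203 1673, Igf1-205 798 and Igf1-206 651, so the leader classes also differ in length. Whether the length relation of the treated libraries enters the change in share was not tested. The 52-base exon was carried by 33.5% ± 6.15 of Igf1 in MI vehicle hearts and 41.6% ± 2.34 in MI prednisone hearts. In sham vehicle hearts that share ran from 18.7% to 53.5%, wider than the difference.

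**Figure D2:**
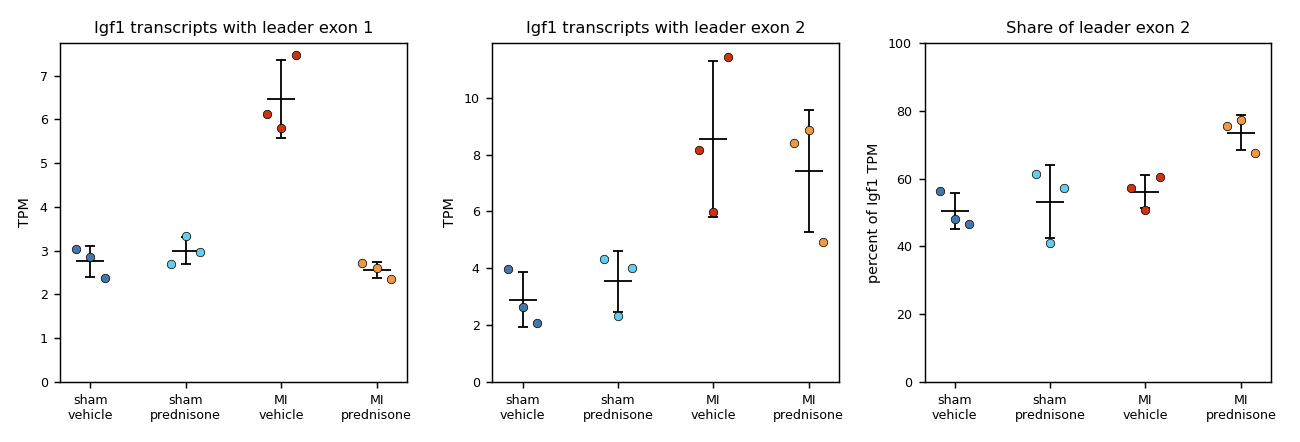
Summed TPM of Igf1 transcripts without leader exon 2, counted as leader exon 1 (left), or with it (middle), and the percent of Igf1 TPM with leader exon 2 (right). Points are mice, bars mean and SD (n = 3). In MI prednisone hearts the leader exon 1 sum is 2.35 to 2.71 TPM, against 5.80 to 7.48 TPM in MI vehicle hearts, while the leader exon 2 sums overlap.

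Igf2, an imprinted gene expressed mainly before birth, read 13.3, 26.6 and 19.1 TPM in sham vehicle hearts and 22, 16.8 and 21 TPM in sham prednisone hearts. In infarcted hearts it read 16.0, 15.3 and 13.6 TPM with vehicle and 29.8, 32.1 and 19.8 TPM with prednisone. The sham groups overlapped, and in MI all 3 treated hearts lay above all 3 untreated ones. The change there was 0.79 ± 0.24 (limma adjusted p = 0.0233), 1.22 after rescaling (limma adjusted p = 0.00626) and 1.25 after the length correction (limma adjusted p = 0.0113). A higher call was made for 2.50% of all genes, and non-overlapping groups in that direction for 3.59%. The call was lost without the third MI vehicle mouse (0.73, limma adjusted p = 0.0598), the first MI prednisone mouse (0.72, limma adjusted p = 0.0786) or the second (0.66, limma adjusted p = 0.0795). The difference between the prednisone effects in MI and sham was 0.73 ± 0.33 and not called (limma adjusted p = 0.13), though it was after rescaling (1.25, limma adjusted p = 0.0492).

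The called Igf2 rise lay in 1 transcript row. Igf2-208, annotated as a processed transcript without a coding region, read 5.57, 5.60 and 4.95 TPM in MI vehicle hearts and 21.1, 22.5 and 12.9 TPM in MI prednisone hearts. In sham hearts it lay between 3.50 and 8.75 TPM. Its change with prednisone in MI was 1.60 ± 0.30 (limma adjusted p = 0.00297 over transcripts). The prednisone effect on it differed between MI and sham (1.83, limma adjusted p = 0.0159, where 18.7% of transcripts were called). It made up 35.9% ± 1.02 of Igf2 TPM in MI vehicle hearts and 68.8% ± 2.84 in MI prednisone hearts (SD, n = 3). It is 958 bases long in 2 exons, at chr7:142652855-142653030 and chr7:142650843-142651624 on the minus strand of GRCm38. All 958 bases (100%) lie within the last exon of the coding transcripts Igf2-201 and Igf2-205, in its noncoding stretch.

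The protein-coding Igf2 transcripts, summed, were not called in that comparison. Together they read 9.23, 17.9 and 11.2 TPM in sham vehicle hearts, 15.8, 13.3 and 13.5 in sham prednisone hearts, 10.5, 9.74 and 8.63 in MI vehicle hearts, and 8.70, 9.62 and 6.82 in MI prednisone hearts. With noncoding rows left out, an alternative chosen after the data were seen, Igf2 changed by -0.19 ± 0.21 with prednisone in MI (limma adjusted p = 0.471). It was then lower in MI than in sham under prednisone, by -0.70 ± 0.21 (limma adjusted p = 0.0352, where 17.1% of genes were called lower). Of the single coding transcripts, Igf2-204 read 2.25, 1.65 and 1.66 TPM in MI vehicle hearts and 0.28, 0.31 and 0.35 TPM with prednisone (-1.11, limma adjusted p = 0.0247). Igf2-202 went from 0.31, 1.57 and 0.0001 TPM to 2.45, 2.05 and 1.04 TPM (0.89, limma adjusted p = 0.169, not called). The coding Igf2 transcripts listed here are 2503 to 4722 bases long, against 958 for Igf2-208. Whether the length relation of the MI prednisone libraries enters the Igf2-208 value was not tested. The sources used here do not say if quantification used strand, so reads from Igf2 and from antisense RNA over it cannot be told apart.

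**Figure D3:**
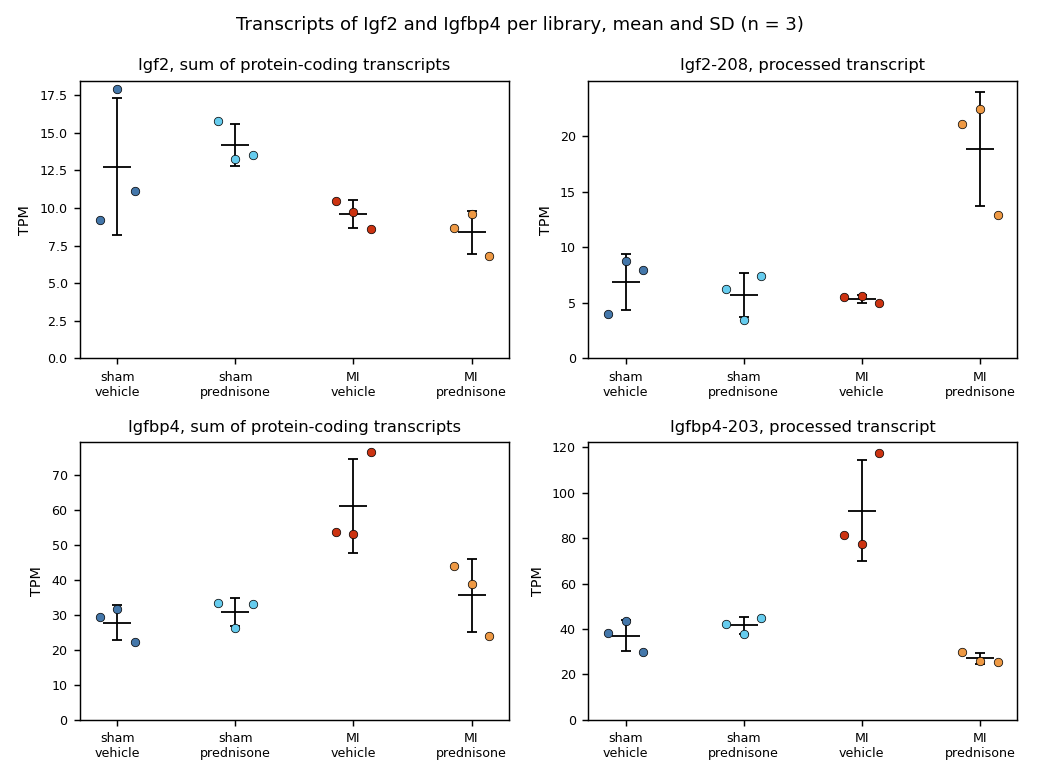
TPM of the protein-coding transcripts (left) and of the main processed transcript (right) of Igf2 (top) and Igfbp4 (bottom). Points are mice, bars mean and SD (n = 3). With prednisone in MI, Igf2-208 reaches 12.9 to 22.5 TPM while the coding sum stays at 6.82 to 9.62 TPM, and both Igfbp4 panels show lower values than with vehicle.

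Igf2 made up 76.5% ± 9.60 of the ligand TPM in sham vehicle hearts, 75.2% ± 0.53 in sham prednisone hearts, 50.4% ± 7.69 in MI vehicle hearts and 73.2% ± 0.44 in MI prednisone hearts (SD, n = 3). Over coding transcripts only, the shares were 68.3% ± 10.2, 68.5% ± 2.19, 39.6% ± 7.34 and 45.9% ± 2.24. The treated infarcted hearts thus lay with the sham hearts when Igf2-208 was counted and near the untreated infarcted hearts when it was not.

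After infarction under vehicle the receptors had the smallest changes of the 9 genes. Igf1r, at 1.33 to 3.12 TPM the lowest of the 9 genes, read 1.65, 2.16 and 1.95 TPM in sham vehicle hearts and 2.32, 2.88 and 2.19 in sham prednisone hearts. It read 1.86, 2.19 and 3.12 TPM in MI vehicle hearts and 1.33, 1.69 and 1.38 in MI prednisone hearts. The treated infarcted hearts lay below the other infarcted hearts, as for 42.6% of all genes. The change of -0.44 ± 0.17 was not called (limma adjusted p = 0.0616). After rescaling it was -0.14, and after the length correction it turned to 0.26. The main transcript is 11409 bases long. For MI against sham under vehicle, Igf1r differed by 0.20 ± 0.17, and by -0.10 after rescaling. Under prednisone the infarcted hearts lay below the sham prednisone hearts, as for 32.2% of all genes. The difference of -0.49 ± 0.17 was not called (limma adjusted p = 0.0772). It was called after rescaling (-0.43, limma adjusted p = 0.0259), and after the length correction it was 0.05 (limma adjusted p = 0.808).

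Igf2r read 17.1, 19.4 and 16.5 TPM in sham vehicle hearts, 19.3, 22 and 20.2 in sham prednisone hearts, 16.9, 18.9 and 16.6 in MI vehicle hearts, and 12.9, 10.5 and 15 in MI prednisone hearts. Sham vehicle and MI vehicle hearts were level, with a change of -0.02 (95% interval -0.31 to 0.28). Treated infarcted hearts lay below every other heart. Of all genes, 32.2% had all treated infarcted hearts below the treated sham hearts, and 42.6% below the untreated infarcted hearts. Against treated sham hearts Igf2r was lower by -0.65 ± 0.13 (limma adjusted p = 0.00815), and against untreated infarcted hearts by -0.43 ± 0.13 (limma adjusted p = 0.0281). Its prednisone effect differed between MI and sham (-0.63 ± 0.19, limma adjusted p = 0.0374), where 21.3% of all genes were called and 20.7% were called lower. These calls were lost on the other scales: the MI prednisone change was 0.00 after rescaling and 0.28 after the length correction, while against treated sham hearts it was -0.55 (limma adjusted p = 0.0547) and -0.14 (limma adjusted p = 0.576). The gene's main transcript is 8887 bases long. The call against MI vehicle was also lost without the second MI vehicle mouse (-0.37, limma adjusted p = 0.0782) or the first (-0.44, limma adjusted p = 0.0672) or second (-0.30, limma adjusted p = 0.0976) MI prednisone mouse.

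**Figure D4:**
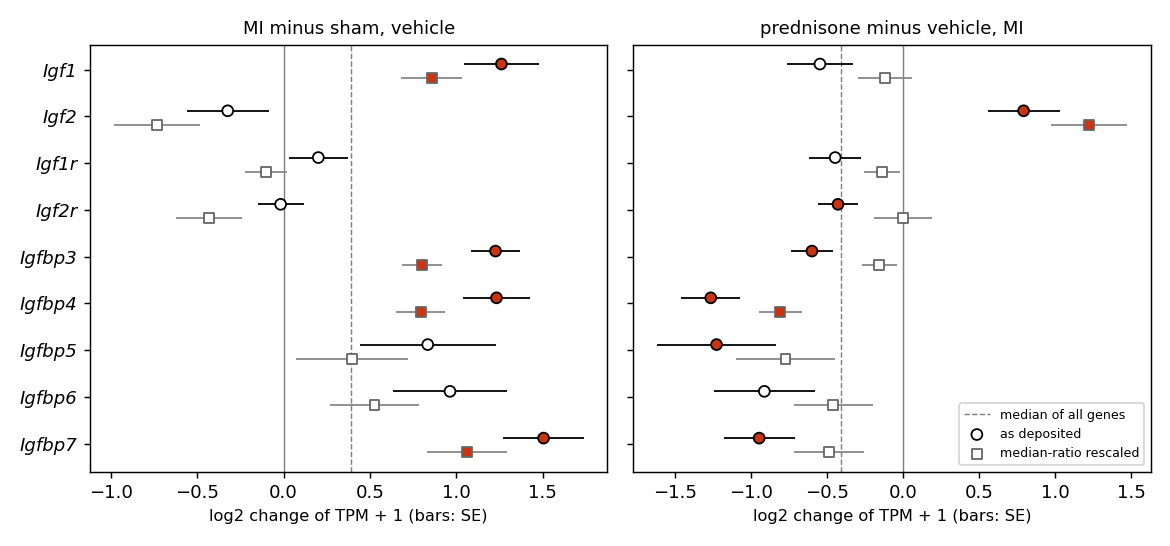
Log2 change of TPM + 1 (horizontal axes, bars SE) of the 9 genes for MI against sham under vehicle (left) and prednisone against vehicle in MI (right). Circles use TPM as deposited and squares the rescaled libraries, in red where the adjusted p is under 0.05. The dashed line is the median of all genes, at 0.39 and -0.41. Igf1, Igfbp3, Igfbp4 and Igfbp7 are red on both scales at left, and Igf2 and Igfbp4 at right.

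The 5 binding protein genes together read 301.9 ± 52.8 TPM in sham vehicle hearts, 330.5 ± 38.4 in sham prednisone hearts, 750.5 ± 165 in MI vehicle hearts and 357.1 ± 67.3 in MI prednisone hearts (SD, n = 3). Igfbp7 was the most abundant in all 4 groups by mean and Igfbp3 the least. In sham vehicle hearts the order by mean TPM, a scale that accounts for transcript length, was Igfbp7 (122.9 ± 6.19), Igfbp4 (65.5 ± 11.3), Igfbp5 (54.1 ± 19.9), Igfbp6 (47.0 ± 16.1) and Igfbp3 (12.5 ± 0.85). Igfbp4, Igfbp5 and Igfbp6 overlapped between mice. The ratio of binding protein to ligand TPM was 15, 11 and 10.5 in sham vehicle hearts, 19.1, 28.0 and 28.0 in MI vehicle hearts and 10.3, 8.28 and 10.6 in MI prednisone hearts. Over coding transcripts only, chosen after the data were seen, the ratio was 16.3, 13.2 and 13.9 in sham vehicle hearts, 20.1, 31.5 and 28.7 in MI vehicle hearts and 19.7, 15.7 and 18.5 in MI prednisone hearts. All untreated infarcted hearts were above the rest both ways, but the treated ones lay at or below the lower sham vehicle hearts with all transcripts counted, and 2 of 3 lay above every sham vehicle heart with coding ones only.

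The starts of the 4 genes that rose after infarction are printed for what they share. Each window is the 150 bases before the RefSeq start on GRCm38.p6, read on the gene's strand, and all 9 members had an entry. For Igf1 this start lies upstream of leader exon 2 (chr10:87860961-87861110, plus). The others lie at chr11:7213924-7214073 (Igfbp3, minus), chr11:99041094-99041243 (Igfbp4, plus) and chr5:77408046-77408195 (Igfbp7, minus). Capitals mark TATAAA, the core of the TATA box, and GGGCGG, the Sp1 box, on either strand.
Igf1 promoter: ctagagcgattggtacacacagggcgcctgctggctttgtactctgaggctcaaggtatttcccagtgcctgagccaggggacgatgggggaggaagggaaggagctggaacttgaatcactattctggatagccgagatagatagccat
Igfbp3 promoter: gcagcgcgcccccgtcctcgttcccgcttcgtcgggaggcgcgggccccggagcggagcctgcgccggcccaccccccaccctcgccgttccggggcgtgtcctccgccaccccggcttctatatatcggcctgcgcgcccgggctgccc
Igfbp4 promoter: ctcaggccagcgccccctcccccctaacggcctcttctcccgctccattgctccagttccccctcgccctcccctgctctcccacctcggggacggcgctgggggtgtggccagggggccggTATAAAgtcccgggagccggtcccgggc
Igfbp7 promoter: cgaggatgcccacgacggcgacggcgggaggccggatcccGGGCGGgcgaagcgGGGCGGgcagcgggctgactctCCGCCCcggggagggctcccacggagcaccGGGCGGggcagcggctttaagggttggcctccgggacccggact

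Igfbp4 has TATAAA 28 bases before its start, a motif found in 7.57% of 32851 such windows. Igfbp7 has GGGCGG 110, 96 and 44 bases before the start and its complement CCGCCC once, and 28.6% of windows hold it on either strand. Igf1 and Igfbp3 hold neither. The spaced palindrome bound by the glucocorticoid receptor, searched on both strands, is in 0.17% of windows and in none of the windows of the 9 genes. The windows of Igfbp3, Igfbp4 and Igfbp7 are 73.3% to 78.7% G and C, and that of Igf1 is 54% G and C. The 4 genes thus share none of these motifs.

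Igfbp3, which encodes the main carrier of IGFs in blood plasma, read 11.7, 13.4 and 12.4 TPM in sham vehicle hearts and 13.6, 11.2 and 11.9 in sham prednisone hearts. It read 27.4, 29.2 and 35.5 TPM in MI vehicle hearts and 21.5, 21.8 and 16.6 in MI prednisone hearts. Both infarcted groups were above all sham hearts, and the treated group lay between. Of all genes, 40.8% had MI above sham hearts without overlap under vehicle and 12.9% under prednisone. The rise after infarction was 1.23 ± 0.14 under vehicle (limma adjusted p = 0.005) and 0.66 ± 0.14 under prednisone (limma adjusted p = 0.00962), and both calls held after rescaling and the length correction. Under prednisone it missed the threshold without the first MI prednisone mouse (0.60, limma adjusted p = 0.0501). Prednisone against vehicle in MI gave -0.60 ± 0.14 (limma adjusted p = 0.00815), which was -0.15 and not called after rescaling (limma adjusted p = 0.34) or after the length correction (limma adjusted p = 0.378).

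Igfbp4, which encodes a binding protein that inhibits IGF action until it is cleaved, read 67.9, 75.5 and 53.2 TPM in sham vehicle hearts and 77.2, 64.4 and 79.0 in sham prednisone hearts. In MI vehicle hearts it read 136.8, 135.0 and 196.4 TPM, and in MI prednisone hearts 75.8, 66.5 and 50.8 TPM. The treated infarcted hearts fell within or just below the sham range, and the untreated ones stood alone. Igfbp4 rose by 1.23 ± 0.19 after infarction under vehicle (limma adjusted p = 0.00693) and fell with prednisone in MI by 1.26 ± 0.19 (limma adjusted p = 0.00145). Its prednisone effect in MI was lower than that in sham by -1.44 ± 0.27 (limma adjusted p = 0.00942). Rescaled, these 3 changes were 0.79, -0.81 and -0.89, and with length corrected 0.80, -0.87 and -0.99, all still called. In the last of these comparisons 10.1% of all genes were called after rescaling and 2.04% with length corrected. MI and sham hearts under prednisone differed by -0.20 ± 0.19 (95% interval -0.63 to 0.22).

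The transcripts of Igfbp4 moved together but unequally. Igfbp4-201, the coding transcript of 3831 bases, read 53.5, 51.9 and 74.0 TPM in MI vehicle hearts and 43.7, 36.8 and 23.6 with prednisone (-0.79 ± 0.23, limma adjusted p = 0.0235). Igfbp4-203, a processed transcript of 785 bases, read 81.6, 77.4 and 117.6 TPM with vehicle and 29.7, 25.9 and 25.6 with prednisone (-1.71 ± 0.18, limma adjusted p = 0.000148). Of its bases 96.4% lie in exons of Igfbp4-201. Its share of Igfbp4 was 58.9% ± 1.40 in MI vehicle hearts and 42.8% ± 6.53 in MI prednisone hearts (SD, n = 3). Here the short noncoding form was the one with the larger fall, whereas the short noncoding form of Igf2 rose. With noncoding rows left out, Igfbp4 still fell with prednisone in MI (-0.79, limma adjusted p = 0.0183, where 44.2% of genes were called), and the difference between prednisone effects was -0.95 (limma adjusted p = 0.0502, where 27.7% were called).

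Igfbp7 read 119.5, 130.1 and 119.2 TPM in sham vehicle hearts and 121.0, 117.1 and 150.2 in sham prednisone hearts. It read 235.0, 484.7 and 377.9 TPM in MI vehicle hearts and 231.1, 166.4 and 156.0 in MI prednisone hearts. The lowest untreated infarcted heart was only just above the highest treated one. Igfbp7 had the largest rise of the 9 genes after infarction under vehicle, 1.51 ± 0.23 (limma adjusted p = 0.0068), called also after rescaling (1.06) and the length correction (1.11). With replicate number fitted as well, Igfbp7 lost the call after the length correction (limma adjusted p = 0.0701). It fell with prednisone in MI by 0.94 ± 0.23 (limma adjusted p = 0.0101), which was -0.49 and not called after rescaling (limma adjusted p = 0.138), and -0.75 after the length correction (limma adjusted p = 0.0545). MI exceeded sham under prednisone by 0.50 ± 0.23 without overlap, as for 12.9% of all genes, but this was not called (limma adjusted p = 0.178). The difference between prednisone effects was -1.01 ± 0.33, at the edge of the threshold (limma adjusted p = 0.0497), -0.46 after rescaling (limma adjusted p = 0.384) and -0.80 after the length correction (limma adjusted p = 0.225).

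Igfbp5, the binding protein with a strong affinity for matrix, and Igfbp6, which prefers IGF-2, varied most between mice of a group. Igfbp5 read 58.1, 71.7 and 32.4 TPM in sham vehicle hearts, 64.7, 55.3 and 67.6 in sham prednisone hearts, 101.6, 46.7 and 165.3 in MI vehicle hearts and 35.7, 48.2 and 34.4 in MI prednisone hearts. The second MI vehicle heart was inside the range of the sham vehicle hearts and of the treated infarcted hearts, and below all sham prednisone hearts. Its rise after infarction was 0.83 ± 0.39 and not called (limma adjusted p = 0.127). Without that mouse it was 1.32 (limma adjusted p = 0.0374). Igfbp5 fell with prednisone in MI by 1.22 ± 0.39 (limma adjusted p = 0.0313). That call was lost after rescaling (-0.77, limma adjusted p = 0.0954), after the length correction (-0.54, limma adjusted p = 0.289), without the first (-1.16, limma adjusted p = 0.0598) or the third (-0.81, limma adjusted p = 0.105) MI vehicle mouse, and without the first (-1.16, limma adjusted p = 0.0873) or the third (-1.14, limma adjusted p = 0.0857) MI prednisone mouse.

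Igfbp6 read 46.9, 63.1 and 30.9 TPM in sham vehicle hearts, 50.9, 45.7 and 61.6 in sham prednisone hearts, 79.7, 65.0 and 135.1 in MI vehicle hearts and 58.5, 57.8 and 30.3 in MI prednisone hearts. All untreated infarcted hearts were above all others. The rise after infarction, 0.96 ± 0.33, was not called (limma adjusted p = 0.064), and 40.8% of all genes had groups separated in that direction. The difference with prednisone in MI, -0.91 ± 0.33, stood at a limma adjusted p of 0.0501. Igfbp6 passed the threshold without the second sham vehicle mouse (limma adjusted p = 0.0471), the third (limma adjusted p = 0.0426) or the second MI vehicle mouse (-1.13, limma adjusted p = 0.0309). After rescaling it was -0.46 (limma adjusted p = 0.204) and after the length correction -0.72 (limma adjusted p = 0.06).

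In sham hearts prednisone left no member past the threshold. Of the 9 genes 0 were called by limma and 0 had an unadjusted p under 0.05. Of all 13158 genes 0.114% were called, and 469 had an unadjusted limma p under 0.05. The changes ran from -0.03 (Igfbp3, 95% interval -0.34 to 0.28) to 0.27 (Igfbp5, 95% interval -0.59 to 1.14). Igf1r was the one member whose sham groups did not overlap (0.24 ± 0.17), a separation in that direction seen in 15.6% of all genes. For Igfbp4, which fell by 1.26 with prednisone in MI, the sham interval was -0.25 to 0.60.

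Fibroblast and macrophage marker sums, like the binding protein sum, were highest in MI vehicle hearts. The sums of the 6 endothelial markers overlapped between the MI groups, at 273 to 359 TPM in MI vehicle and 269 to 375 in MI prednisone hearts. The single markers went both ways. Pecam1 (60.3 to 96.6 and 43.9 to 49.1 TPM) and Cdh5 (50.4 to 65.0 and 29.6 to 38.6) were lower with prednisone without overlap. Egfl7 (90.3 to 104.0 and 116.1 to 224.9) was higher without overlap, and Kdr, Tie1 and Cldn5 overlapped. The 7 fibroblast markers (Pdgfra, Dcn, Lum, Tcf21, Col1a1, Col1a2 and Col3a1) summed to 379 to 511 TPM in sham vehicle, 432 to 516 in sham prednisone, 890 to 1150 in MI vehicle and 305 to 516 in MI prednisone hearts. All 7 were called higher after infarction under vehicle, against 15.1% of all genes, and all 7 lower with prednisone in MI, against 34.9%. The 8 macrophage markers summed to 277 to 394, 318 to 421, 614 to 1341 and 307 to 558 TPM, with 7 of 8 higher and 6 of 8 lower in those comparisons. None of these markers was at 0 in every library. After rescaling, 3 of 7 fibroblast markers were still higher after infarction, where 7.44% of all genes were called. With prednisone in MI 6 of 7 were still lower, where 28.8% of all genes were called. The 5 activated fibroblast markers (Postn, Cthrc1, Fap, Comp and Cilp) summed to 116.7, 326.8 and 188.4 TPM in MI vehicle hearts, the order of Igfbp7 in those mice, and to 152.0, 93.9 and 58.1 TPM in MI prednisone hearts. How far these cells account for the member values was not tested.

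Mesothelial and adipocyte markers ranked the mice within most groups as Igfbp5 did, and less often as Igfbp6 did. Igfbp4 ranked the mice as Igfbp6 did in all 4 groups, so the order is not particular to Igfbp5 and Igfbp6. The third MI vehicle library had the highest value of both genes, and also of Igf1, Igf1r, Igfbp3 and Igfbp4. The 6 mesothelial markers (Msln, Upk3b, Upk1b, Wt1, Krt19 and Lrrn4), which mark the outer lining of the heart, summed to 53.0, 70.4 and 30.04 TPM in sham vehicle hearts and 113.8, 86.9 and 170.1 in MI vehicle hearts. In both groups the mice kept the order they had for Igfbp5 and Igfbp6. In sham prednisone hearts the sums were 64.2, 49.9 and 62.3 TPM and in MI prednisone hearts 37.7, 81.2 and 25.0 TPM. The sham prednisone order was that of neither gene, and the MI prednisone order was that of Igfbp5 but not Igfbp6. Of the 6 markers 3 were called higher after infarction under vehicle, against 15.1% of all genes, and 5 lower with prednisone in MI, against 34.9%. None was at 0 in every library. The 5 adipocyte markers (Adipoq, Plin1, Cidec, Lep and Cfd) summed to 244, 345 and 17.9 TPM in sham vehicle hearts, 137, 134 and 150 in sham prednisone hearts, 637, 16.4 and 1501 in MI vehicle hearts and 287, 826 and 249.7 in MI prednisone hearts. In all 4 groups this was the order of Igfbp5. It was the order of Igfbp6 in all but the MI prednisone hearts. Of the 5 adipocyte markers 0 were called in any of the comparisons. In the third MI vehicle library, T and B cell markers summed to 159.7 TPM against 1.06 to 10.6 in the other 11. The part of any of these in the Igfbp4, Igfbp5 and Igfbp6 values was not tested.

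**Figure D5:**
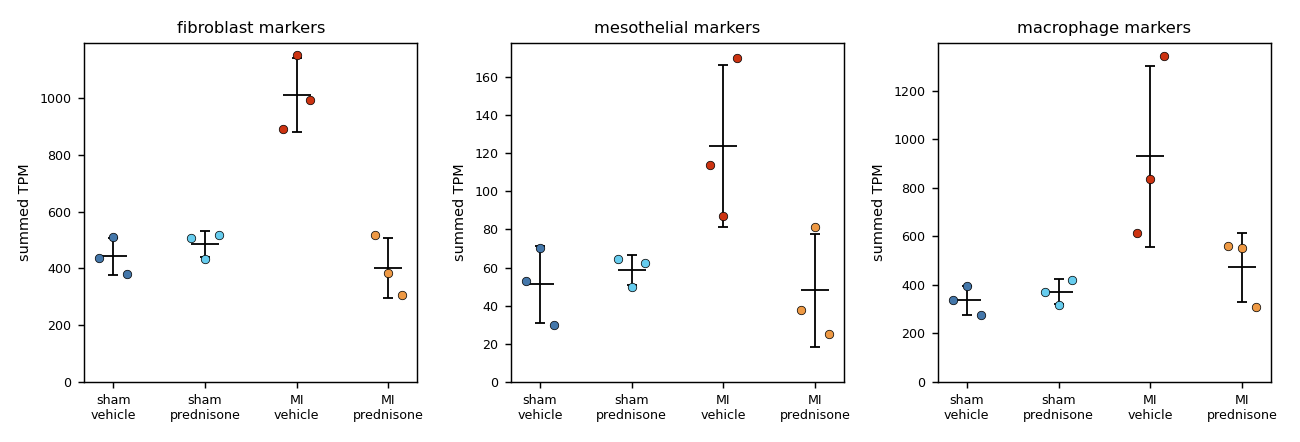
Summed TPM (vertical axes, from 0) of the fibroblast, mesothelial and macrophage marker lists per mouse, with group mean and SD (n = 3). Fibroblast sums in MI vehicle hearts (890 to 1150 TPM) lie above all other hearts, and mesothelial sums vary within groups, from 25.0 to 81.2 TPM in MI prednisone hearts.

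The genes whose levels over the 12 libraries were most like each member were named by Pearson's r among the 8108 genes that averaged 5 TPM or more. The values share libraries and groups and carry no test. Igf1 was closest to Ifitm3 (r = 0.97) and Pdpn (0.96), and Igfbp3 to Ifitm2 (0.98) and Thbs4 (0.97). Igfbp7 was closest to Bgn (0.99), the matrix proteoglycan biglycan, and Col8a1 (0.99). For Igfbp4 the gene given is Timp2 (0.99), a metalloproteinase inhibitor. Igfbp5 was closest to the mesothelial marker Upk3b (0.96) and to C2 (0.96), and Igfbp6 to Ptrf (0.98) and Slpi (0.97). Igf2r was closest to the desmosomal gene Dsp (0.97) and Gna12 (0.97), and Igf1r to Sar1a (0.94) and Tstd2 (0.93). Igf2 had the weakest neighbours, Itga7 (0.89) and Ndufv3 (0.89). Between members the highest r were Igf1 with Igfbp3 (0.94), Igfbp3 with Igfbp7 (0.91) and Igfbp4 with Igfbp6 (0.91). Within groups, as deviations from the group means over the same 12 libraries, r was 0.96 for Igfbp4 with Igfbp6, 0.81 for Igfbp5 with Igfbp6 and -0.26 for Igfbp5 with Igfbp7.

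Around the members, 66 further pathway genes were tested. After infarction under vehicle 15 of them were higher and 1 lower, where 15.1% of all genes were called higher. After rescaling 2 were higher and 2 lower, where 7.44% of all genes were called. Among 11 extracellular regulators 7 were higher. Igfbp2, another binding protein, rose by 1.91 (limma adjusted p = 0.0333), from 0.27, 0.48 and 0.13 TPM to 1.05, 3.84 and 10.3 TPM. Mmp3, a protease that cleaves binding proteins, rose by 1.46. In the growth hormone axis, which drives Igf1 transcription in liver, 3 of 8 were higher, led by the feedback inhibitor Socs3 (1.37, and 1.00 after rescaling). Grb14, an adaptor that inhibits the insulin receptor, was the one lower gene (-0.33, and -0.77 after rescaling) of the 35 tested signalling genes, of which 3 were higher. Of the 5 tested imprinted and RNA-level regulators none was called, and of the 7 genes of the mannose-6-phosphate route 2 were higher. Igfbp1 was listed at 0 in every library, as was Gh, and H19, Airn, Igf2os and Mir483 were not analysed here.

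With prednisone in MI 36 of the 66 genes were lower and 1 higher, where 34.9% of all genes were lower. After rescaling 13 were lower and 6 higher, where 28.8% of all genes were called, and after the length correction 7 were lower and 5 higher of 61 with a length. The 36 became 22 without the first MI prednisone mouse. The signalling list had 22 of 35 genes lower. They included Gsk3b (-1.39), a kinase that AKT inhibits, and Pdpk1 (-1.22), the kinase that activates AKT. The adaptor Shc1 (-1.0) and the PI3K subunit Pik3r1 (-0.99) were also among them. After rescaling these 4 were still called, at -0.98, -0.82, -0.57 and -0.56, and after the length correction all but Pik3r1 were (-0.70, -0.53 and -0.52, with Pik3r1 at -0.29). In the growth hormone axis 6 of 8 were lower, including Socs3 (-0.95) and Jak2 (-0.94), the kinase of the growth hormone receptor. Crim1, a membrane protein with an IGF-binding protein motif, fell by 1.60, from 10.8, 12.9 and 16.8 TPM to 3.58, 3.45 and 4.12 TPM. Of the mannose-6-phosphate route 3 of 7 were lower, and of the imprinted and RNA-level regulators 2 of 5. In sham hearts 0 of the 66 were called.

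Under prednisone, MI against sham gave 14 lower and 1 higher of the 66 genes, where 14.1% of all genes were lower. After rescaling there were 18 and 5, where 26.0% of all genes were called, and after the length correction 8 and 1 of 61. The lower ones included 11 signalling genes, among them Irs1 (-1.15), Insr (-1.0), Gsk3b (-1.30) and Pdpk1 (-1.02), and the list of lower genes also held the growth hormone receptor Ghr (-0.63). After the length correction these 5 were still called, at -0.63, -0.50, -0.87, -0.59 and -0.52. Irs1, an adaptor of the insulin and IGF-1 receptors, read 2.84, 3.29 and 2.93 TPM in sham prednisone hearts and 0.64, 0.58 and 1.27 TPM in MI prednisone hearts. Insr, the insulin receptor, read 18.5, 21.7 and 17.1 TPM and 8.19, 7.85 and 11.4 TPM in the same groups. Lrp1, a scavenger receptor that also binds Igfbp3, was the one higher gene (1.57). Its rise with prednisone in MI (0.48, limma adjusted p = 0.0452) was, as for Igf2, that of a noncoding row. Lrp1-208, a retained intron transcript of 763 bases, read 21.8, 30.6 and 21.6 TPM in MI vehicle hearts and 65.5, 56.2 and 37.1 with prednisone. The coding Lrp1-201 read 14.2, 15.3 and 15.7 TPM and then 9.42, 9.04 and 7.22 TPM.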

How the data were processed

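The members and gene lists were chosen with earlier results of these data known. The deposited values are TPM per transcript in 1 table. The submitters' processing notes name Trimmomatic, HISAT2, kallisto and mm10, without roles or versions, and the labels describe stranded mRNA libraries. All 12 sample columns matched a title and 0 columns were unmapped. Gene values are sums over the 105129 transcript rows that carry a symbol. Depth is unknown, since TPM keep no read totals, so no counting intervals are given.

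Genes with at least 1 TPM in 3 libraries were tested as log2(TPM + 1) with limma 3.58.1 (R 4.3.3), 4 group means, an intensity trend and Benjamini-Hochberg adjustment over all genes. Median-ratio rescaling used size factors over genes. The length correction subtracted a loess curve (span 0.5) of deviation against log length from each library, for the 90.4% of genes with a length in GENCODE M21. Single transcripts were tested likewise. The scripts were tested on simulated data. Each sample is 1 mouse. Named genes were the 9 members, the 2 genes most correlated with each, and at most 4 called genes per pathway list and comparison, by size of change; 1 gene that this rule names is not reported here. Lrp1 transcripts and the sample values of pathway genes were added after their values were seen. Figures were drawn with matplotlib 3.10.9.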

Additional observations from a re-analysis of the deposited data

Results flagged for a closer look

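Among the 9 genes, 3 had prednisone effects that differed between infarcted and sham hearts by the limma interaction term. For Igfbp4 the prednisone effect was -1.26 in MI and 0.17 in sham, a difference of -1.44 (limma adjusted p = 0.00942), with 3 of 3 treated infarcted hearts below all untreated ones, as in 42.6% of all genes. For Igf2r the effects were -0.43 and 0.21, a difference of -0.63 (limma adjusted p = 0.0374). For Igfbp7 they were -0.94 and 0.07, a difference of -1.01 (limma adjusted p = 0.0497). In this comparison 21.3% of all genes were called. Only the Igfbp4 difference was also called after rescaling and after the length correction.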

How the results depend on the processing

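Alternatives were rescaling, no low filter, pseudocount 0.1, no intensity trend, replicate block, length correction (also with the block), fitting only the groups compared, mitochondrial rows removed, the most abundant transcript, coding transcripts only (chosen after seeing the data), and leaving out each mouse. No pairing of mice by replicate number was stated or seen. Same-numbered libraries of different groups correlated at -0.58 to 0.28 over 18 pairs, and 7 of 36 correlated best with their own number. With 3 mice per group these correlations cannot exclude a pairing. With the replicate block, 4 (MI under vehicle), 2 (MI under prednisone), 5 (prednisone in MI), 0 (prednisone in sham) and 1 (difference between prednisone effects) of the 9 genes were called. The cause of the changes below was not tested, except that fewer mice or genes entered some fits.

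The 4 calls for MI under vehicle became 0 with only those groups fitted and 3 to 5 with a mouse left out. Igfbp7 also lost its call there in the length correction with the block. The 2 for MI under prednisone became 4 with only those groups or the most abundant transcript, and 1 to 3 with a mouse left out. The 6 for prednisone in MI became 2 after rescaling, 2 after length correction with or without the block, 1 with only those groups, and 3 to 7 with a mouse left out. The 3 for the difference became 1 with no filter, the block, length correction with or without it, or mitochondrial rows removed, and 1 to 5 with a mouse left out. Sham stayed at 0 throughout these alternatives.

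Signs turned as follows. Rescaling gave -0.10 for Igf1r in MI under vehicle, 0.00 (0.0033) for Igf2r with prednisone in MI, and -0.0265 for Igf2 and -0.0240 for Igfbp7 with prednisone in sham. Length correction, with or without the block, gave Igf1r -0.10 in MI under vehicle, 0.0512 in MI under prednisone, 0.26 with prednisone in MI and 0.15 for the difference. It gave Igf2r 0.28 with prednisone in MI and 0.20 for the difference, and Igf2 -0.0104 in sham. Coding transcripts alone gave Igf2 -0.70 in MI under prednisone, -0.19 with prednisone in MI and -0.38 for the difference, Igfbp4 0.16 in MI under prednisone, and Igf2r 0.0172 in MI under vehicle. The most abundant transcript gave Igf2r 0.0172 there and Igf2 -0.23 in sham. With a mouse left out, Igf2r ranged from -0.0715 to 0.0493 in MI under vehicle and Igfbp6 from -0.315 to 0.149 in MI under prednisone. In sham, Igf2 then ranged from -0.183 to 0.294, Igfbp3 from -0.101 to 0.0292, Igfbp5 from -0.0502 to 0.510, Igfbp6 from -0.0546 to 0.449 and Igfbp7 from -0.0455 to 0.133.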
